A study of Mus musculus with 9 samples.

Results

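This account concerns 10 mouse genes for amino acid transporters, Slc7a1, Slc7a2, Slc7a5, Slc3a2, Slc38a1, Slc38a2, Slc38a3, Slc1a4, Slc1a5 and Slc43a1, among the 18193 genes measured. They were taken by gene symbol, through every probe set whose platform annotation named 1 gene, which gave 22 probe sets: 7 genes had several and 3 (Slc7a5, Slc3a2 and Slc43a1) had 1. For each gene the values below come from its brightest probe set, averaged over the 9 arrays, unless another is named. Affymetrix GeneChip arrays, 1 for each sample, read the RNA of 5 hepatocellular carcinomas and of 4 normal livers. The tumours carried deletion of both Rb alleles (Rb Δ/Δ) and both p130 alleles (p130 Δ/Δ), and p107 was listed as +/-, although the titles call them triple knockout (TKO). They were taken from mice that had received adenovirus with Cre recombinase (Ad-Cre) by way of the spleen 4 months earlier. The labels name no promoter limiting Cre to a cell type. The normal livers were wild type, adult and without tumours, and no virus is named for them. Genotype, virus and tumour therefore differ together between the groups and cannot be told apart. The labels do not state that each sample is a different animal; p-values here reflect sample-to-sample spread alone, which may be technical.

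Amino acids cross the plasma membrane through carriers of the solute carrier families, each with its own substrates and driving force. Hepatocytes take up cationic amino acids with the low-affinity carrier CAT2 (Slc7a2) and move glutamine, histidine and asparagine with the system N carrier SNAT3 (Slc38a3), which can run in both directions. Growing cells commonly rely on the glutamine carrier ASCT2 (Slc1a5) and on LAT1 (Slc7a5), which exchanges large neutral amino acids and reaches the cell surface only as a partner of the heavy chain 4F2hc (Slc3a2).

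Slc43a1 was among the genes that rose, and the 250 bases of its promoter before the start site are shown because they hold a motif searched for, the E-box CACGTG, in capitals. The sequence is from RefSeq (GRCm38.p6, chr2:84840073-84840322, plus strand), written 5′ to 3′.
Slc43a1 promoter: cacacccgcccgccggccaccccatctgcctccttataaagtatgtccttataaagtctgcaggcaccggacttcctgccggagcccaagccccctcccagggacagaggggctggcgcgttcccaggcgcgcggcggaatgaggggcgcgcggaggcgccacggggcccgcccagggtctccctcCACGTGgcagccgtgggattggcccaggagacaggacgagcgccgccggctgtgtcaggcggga
The E-box, the site read by MYC and related factors, begins 64 bases before the start. This stretch held 24 CG dinucleotides, against a median of 6 over the same stretch of 32851 RefSeq promoters. The count was not particular to Slc43a1. The same stretch held 30 for Slc38a2, 21 and 5 for Slc7a1, 16 for Slc1a4 and 11 for Slc3a2, none of which passed. Slc1a4 is shown by the 30 bases around its start site (chr11:20332704-20332733, minus strand, 20 bases before the start and 10 after), because they hold the letters searched for as the amino acid response element of ATF4, the factor that switches on amino acid genes when supply is short.
Slc1a4 start site: cagcgtgcctcctgcgTTGCATCAtctcca
The capitals match TGATGNAA read on the other strand. RefSeq promoter windows (250 bases before the start and 50 after) were found for 5 of the 10 genes, Slc43a1, Slc1a4, Slc38a2, Slc3a2 and Slc7a1, the last with 2 windows. Slc7a2, Slc7a5, Slc38a1, Slc38a3 and Slc1a5 were not matched. Searched on both strands, CACGTG was held by 7.15% of all promoter windows, TGATGNAA by 3.97%, and either TTTCCCGC or TTTGGCGC, forms of the E2F site, by 1.56%. No further match was found in the 6 windows, which says only that these letters are not there.

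Some arrays have to be described before the results. Tumour 1 carried RNA of the exocrine pancreas: Cpa1, a digestive carboxypeptidase, read 14.58 on the log2 scale against 5.33 to 5.69 in the other tumours and 5.68 to 5.87 in the livers. The trypsinogen gene Prss2 read 14.55 there against 7.15 to 7.47 in the other tumours, Ctrb1 (chymotrypsinogen) 14.53 against 5.71 to 6.17, and the mean of the 4 measured acinar markers was 14.51 in tumour 1 against 6.87 to 7.48 on every other array. In the group comparison 0 of these 4 markers passed with limma. Results on the transporters are therefore given with and without tumour 1. Tumour 3 had the highest mean of 6 stellate cell and fibroblast markers, 9.44 against 7.89 to 8.88 in the other tumours and 8.19 to 8.75 in the livers, with Col3a1 at 12.82 against 10.53 to 10.70 in the other tumours. RNA length was read from the Actb control as the log2 ratio of its 3′ to its 5′ probe set: tumours had 0.605 ± 0.079 (SD, n = 5), livers 0.965 ± 0.044 (SD, n = 4). By an exact two-sided permutation test p was 0.00794, which no split of 9 arrays can undercut, and 0.0159 adjusted over 2 controls. This ratio moved with the groups and cannot be told apart from them in any comparison of tumours with livers. For Gapdh, tumours had -0.21 ± 0.027 (SD, n = 5) and livers -0.28 ± 0.049 (SD, n = 4). The exact permutation p was 0.0635, and 0.0179 without liver 4. The difference, tumour minus liver, was 0.066 for Gapdh and -0.36 for Actb. The 2 controls thus took opposite directions and differed in size. Whether RNA length differed between the groups beyond these 2 controls was not tested. Xist divided the arrays across the groups: 3 arrays (tumours 1 and 2 and liver 4) had it at 6.34 to 6.66 against 12.68 to 13.55 on the other 6.

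**Figure D1:**
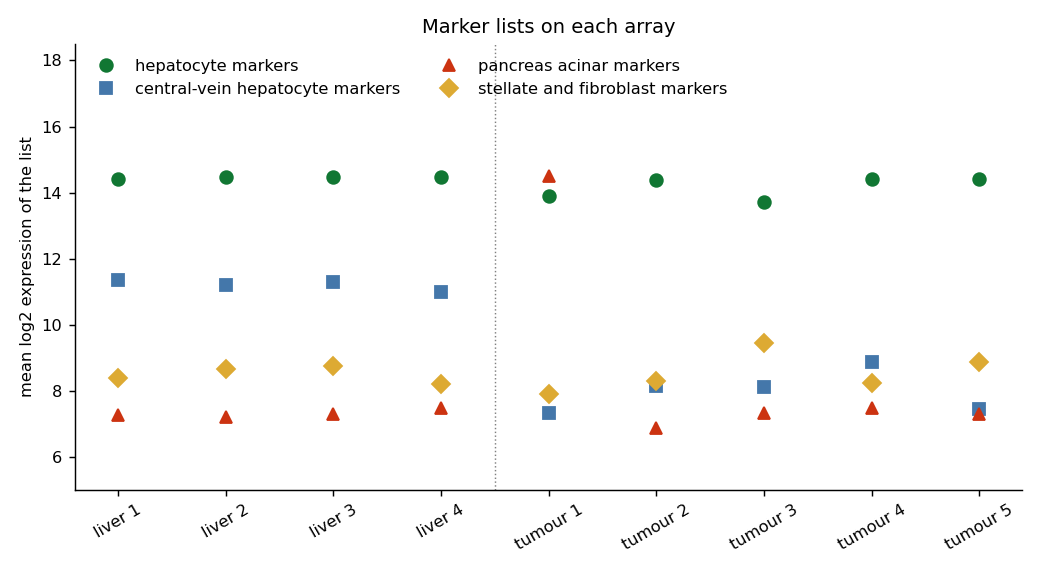
Mean log2 expression of 4 marker lists on each of the 9 arrays, 1 point per array and list (4 livers left of the dotted line, 5 tumours right of it). Pancreas acinar markers stand at 14.51 in tumour 1 and between 6.87 and 7.48 elsewhere, and markers of hepatocytes around the central vein are lower in all 5 tumours than in all 4 livers.

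In the tumours, 2 of the 10 transporter genes rose (Slc43a1 and Slc1a5), 3 fell (Slc38a3, Slc7a2 and Slc38a1, the last at 0.066 with arrays centred on the median of housekeeping genes) and 5 did not pass an adjusted p of 0.05 with limma; with arrays centred on the mean of housekeeping genes 1 rose (Slc43a1) and 5 fell. Of all 18193 genes, 33.5% passed, 16.1% higher and 17.4% lower, and against this background nothing is read from 5 calls among 10 genes. The median log2 difference, tumour minus liver, was 0.013 over the 10 genes and -0.081 over all genes. Among all calls 48.0% were higher, and this split depended on the array scaling. Centring on the 75th percentile made it 22.6% (7982 genes lower) and moved the median of all genes to -0.259. The 11 measured housekeeping genes were no steady base: 6 were higher and 1 lower, with a median difference of 0.40. Their median over an array spanned 11.92 to 12.74 for tumours against 12.72 to 12.92 for livers, whereas their mean spanned 12.08 to 12.48 against 11.68 to 12.04. Centring on that median made the split 87.3% (610 lower, median of all genes 0.306), and centring on that mean, chosen after the data were seen, made it 9.83% (11735 lower, median -0.567). Without tumour 1, 28.4% of all genes passed, and of the transporters Slc43a1 and Slc1a5 were higher and Slc38a3 lower. The tumour and liver values did not overlap for 3 of the 10, Slc43a1, Slc1a5 and Slc38a3, beside 29.8% of all genes. In these bulk samples fewer cells of a type and less RNA per cell cannot be told apart.

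**Figure D2:**
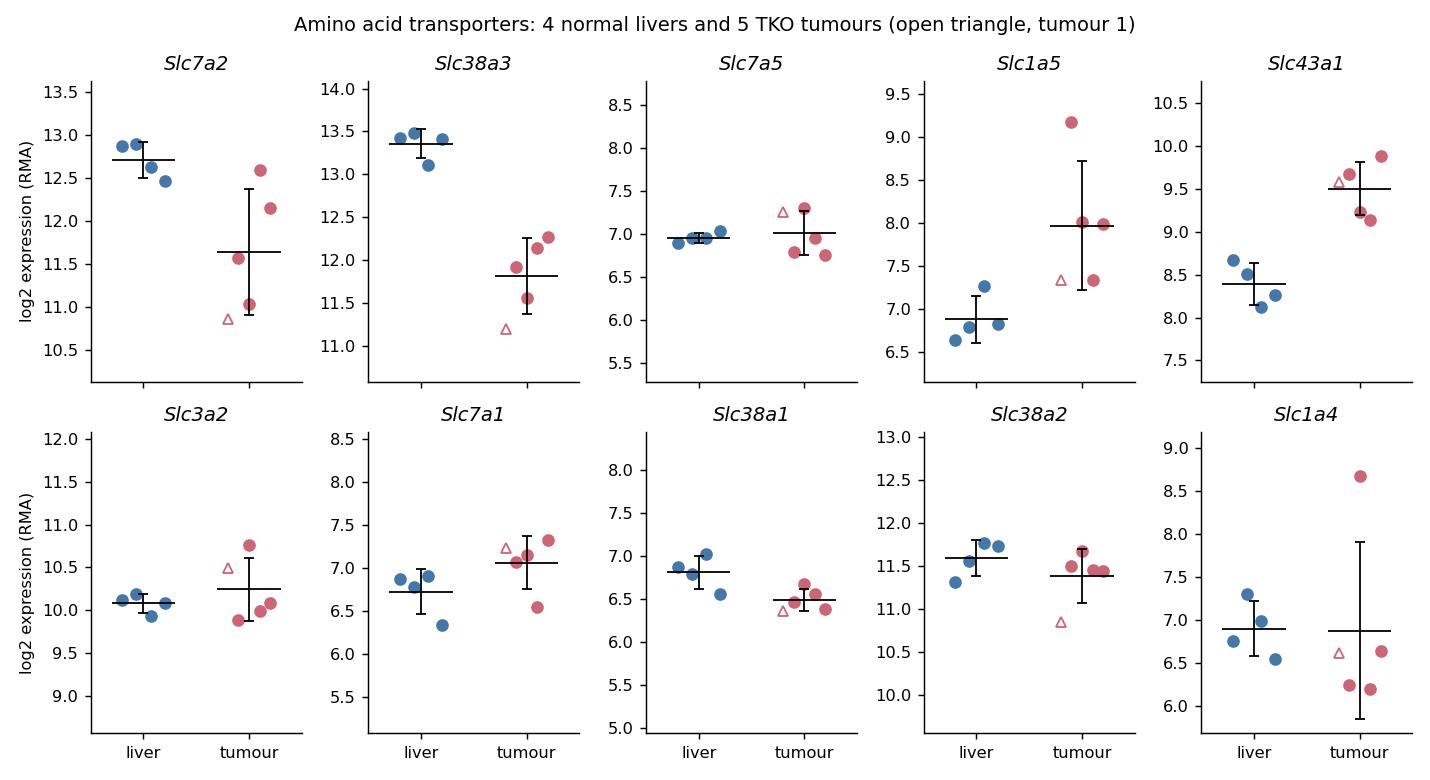
Log2 expression of the 10 transporters on each array, 1 panel per gene over a span of 3.5 log2 units, with 4 livers in blue, 5 tumours in red and tumour 1 as an open triangle; lines and bars are the mean and SD. Slc38a3 is lower in all 5 tumours than in all 4 livers, Slc43a1 and Slc1a5 are higher in all 5, and Slc1a4 has 1 high tumour at 8.67.

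Slc38a3 fell most. Its liver values were 13.43, 13.48, 13.11 and 13.42 (livers 1 to 4) and its tumour values 11.20, 11.92, 11.56, 12.15 and 12.27 (tumours 1 to 5). Every tumour lay below every liver. The mean was 11.82 ± 0.44 for tumours (SD, n = 5) against 13.36 ± 0.17 for livers (SD, n = 4), 2.91-fold lower in tumours (log2 difference -1.54, SE 0.21, limma adjusted p = 0.000766). Without tumour 1, the lowest of the 5, the difference was -1.38 (SE 0.16, adjusted p = 0.000697). A second probe set of Slc38a3, dimmer at means of 6.66 and 7.81, also fell, by 1.15 (SE 0.094). The call held in all 20 alternatives run on the gene, with values from -2.02 to -1.15.

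Slc7a2, the other carrier typical of liver, was lower on average but varied widely between tumours. The tumours read 10.86, 11.57, 11.04, 12.60 and 12.16 and the livers 12.88, 12.90, 12.63 and 12.47. Tumours 1 and 3 were lowest, 4 of 5 tumours lay below every liver, and tumour 4 lay inside the liver range. The mean was 11.65 ± 0.73 (SD, n = 5) against 12.72 ± 0.21 (SD, n = 4), or -1.07 on the log2 scale (SE 0.34; limma adjusted p = 0.0378). The adjusted p lay close to the threshold, and the call was lost without tumour 1 (-0.88, adjusted p = 0.067), tumour 2 (-1.05), tumour 3 (-0.92) or any of livers 1 to 4 (-1.02, -1.01, -1.10 and -1.16), and with arrays centred on the median of housekeeping genes (-0.68). It was also lost with the replicate block and without the 3 arrays of low Xist. The difference stayed between -1.31 and -0.88 whichever array was left out, and adjusted p over its 20 alternatives ran from 0.00514 to 0.259.

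The 4 probe sets of Slc7a2 differed in size. Besides the one used, 1450703_at passed at -1.85 (SE 0.32, adjusted p = 0.00245 over all probe sets), from 9.24 ± 0.32 (SD, n = 4) to 7.40 ± 0.65 (SD, n = 5), and its groups did not overlap. The others, 1422648_at and 1426008_a_at, gave -0.77 (SE 0.40) and -0.75 (SE 0.38) without passing. All 4 placed tumour 4 highest among the tumours, tumour 5 next and tumour 1 lowest. Slc7a2 is known to give alternative transcripts with different transport affinity, and the files do not say which of these each probe set reads.

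The growth types gave unlike results. Slc1a5 rose from 6.88 ± 0.27 (SD, n = 4) to 7.97 ± 0.75 (SD, n = 5), 2.13-fold (log2 1.09, SE 0.35, limma adjusted p = 0.0409). On tumours 1 to 5 it read 7.33, 9.17, 8.01, 7.33 and 7.98, and on the 4 livers 6.63, 6.79, 7.26 and 6.82. All tumours were above all livers, tumour 2 by far the most and tumours 1 and 4 only just. The call was lost without tumour 3 (1.08), tumour 5 (1.09) or any of livers 1 to 4 (1.01, 1.06, 1.22 and 1.07), held without tumour 1 (1.25, SE 0.35, adjusted p = 0.0312), and was 0.79 and past the threshold without tumour 2. It was also lost with arrays centred on the mean of housekeeping genes (0.60), with the replicate block and with Xist as a covariate. Adjusted p over 20 alternatives ran from 0.00416 to 0.130. A dimmer probe set, 1440379_at, read 6.04 in tumours and 6.05 in livers and did not differ beyond its spread (-0.011, SE 0.076).

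Slc7a5 showed no difference beyond its spread in the deposited scaling. The tumours read 7.26, 6.80, 7.31, 6.95 and 6.76 and the livers 6.90, 6.95, 6.95 and 7.04. Tumours 1 and 3 lay above every liver and tumours 2 and 5 below every liver. The log2 difference was 0.054 (95% interval -0.24 to 0.34, limma adjusted p = 0.766), and -0.0075 without tumour 1. Its direction followed the scaling: it was -0.12 with arrays centred on their 75th percentile, 0.44 on the median of housekeeping genes and -0.43 on their mean, the last alone of 20 alternatives past the threshold (adjusted p = 0.0161). The interval holds for the deposited scaling, and a dim probe set can understate a change.

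Set side by side on each array, relative to the liver mean of the same gene, the liver types and Slc1a5 moved apart. In tumour 1, Slc38a3 stood at -2.16, Slc7a2 at -1.86 and Slc1a5 at 0.46. In tumour 2 the same genes stood at -1.44, -1.15 and 2.29, and in tumour 4 at -1.21, -0.12 and 0.46. The tumour with the largest rise of Slc1a5 was therefore not the one with the deepest fall of Slc38a3. Slc7a5 stayed between -0.20 and 0.35 in the 5 tumours. Each of the 4 genes was tested on its own, and no test was made of a score over them.

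**Figure D3:**
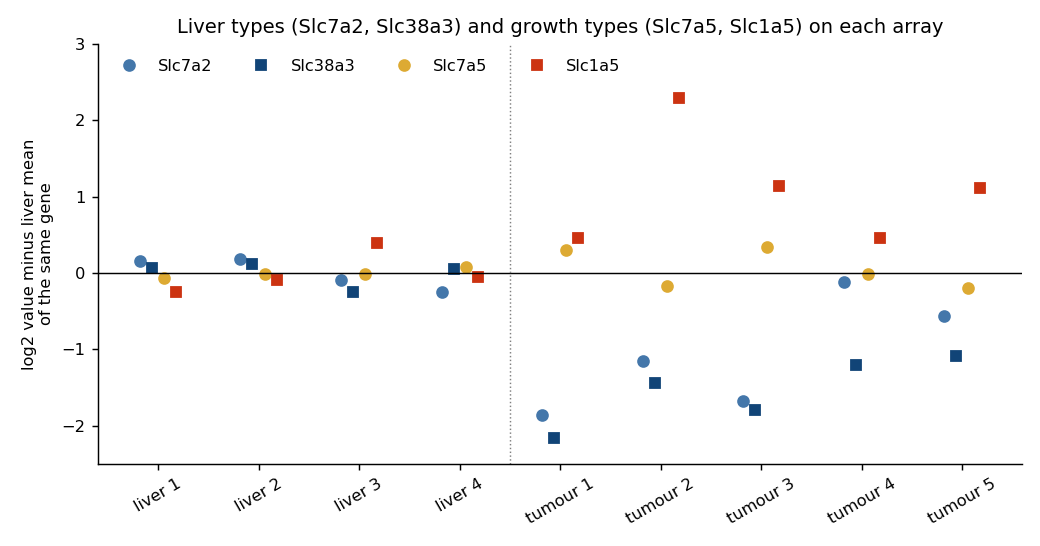
Log2 value of 4 transporters on each array minus the liver mean of the same gene, 1 symbol per gene and array (livers left of the dotted line, tumours right of it). Slc38a3 is between -2.16 and -1.09 in the tumours and Slc1a5 between 0.46 and 2.29, while Slc7a5 stays between -0.20 and 0.35.

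Slc43a1, which encodes LAT3, a carrier of branched-chain and other large neutral amino acids that needs no sodium and no heavy chain, rose 2.16-fold. The tumours read 9.57, 9.67, 9.23, 9.14 and 9.88 and the livers 8.67, 8.51, 8.12 and 8.26. All tumours lay above all livers, with close values in both groups. The mean was 9.50 ± 0.31 (SD, n = 5) against 8.39 ± 0.25 (SD, n = 4), or 1.11 on the log2 scale (SE 0.18; limma adjusted p = 0.00161) and 1.09 (SE 0.20, adjusted p = 0.00495) without tumour 1. The call held in all 20 alternatives, with values of 0.62 and above. It rests on 1 probe set.

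Slc3a2, whose product 4F2hc pairs with LAT1 and other light chains, did not pass. On tumours 1 to 5 it read 10.50, 9.89, 10.76, 9.997 and 10.08, and on the 4 livers 10.12, 10.19, 9.94 and 10.09. Tumours 1 and 3 were above every liver, as for Slc7a5, and tumour 2 below every liver. Tumours differed from livers by 0.16 (95% interval -0.24 to 0.56, limma adjusted p = 0.4999), and 0.098 without tumour 1. It was -0.017 with arrays centred on their 75th percentile, 0.55 on the median of housekeeping genes (adjusted p = 0.0577) and -0.32 on their mean.

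Slc7a1, which encodes CAT1, the cationic amino acid carrier of most cells other than hepatocytes, did not pass: tumours averaged 7.07 ± 0.31 (SD, n = 5) and livers 6.73 ± 0.26 (SD, n = 4), 0.34 apart (95% interval -0.063 to 0.74, limma adjusted p = 0.168). On tumours 1 to 5 it read 7.24, 7.07, 7.15, 6.55 and 7.33, and on the 4 livers 6.88, 6.78, 6.91 and 6.34. In 4 of 5 tumours it was above every liver. The difference was 0.30 without tumour 1 (adjusted p = 0.273), and without tumour 4 it passed at 0.47. With arrays centred on the median of housekeeping genes it was 0.73 and past, and on their mean -0.15. Probe set 1454992_at gave 0.54 (SE 0.22) and the dim 1421533_at -0.23 (SE 0.077), neither past the threshold.

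The sodium-coupled system A carriers of small neutral amino acids differed little between the groups in the deposited scaling. Slc38a1 (SNAT1) averaged 6.49 ± 0.13 for tumours (SD, n = 5) and 6.81 ± 0.19 for livers (SD, n = 4), a log2 difference of -0.32 (SE 0.11) whose limma adjusted p of 0.0491 lay at the threshold and whose sign turned to 0.066 with arrays centred on the median of housekeeping genes (-0.81 on their mean). The tumours read 6.36, 6.46, 6.67, 6.55 and 6.38 and the livers 6.86, 6.79, 7.02 and 6.55, so the groups overlapped through liver 4. Its call was lost without tumour 1 (-0.29), 2 (-0.31), 4 (-0.34) or 5 (-0.30) and without liver 1 (-0.30), 2 (-0.33) or 3 (-0.25), and its other probe set gave -0.28 (SE 0.21). Adjusted p over 20 alternatives ran from 0.00258 to 0.833, and 12 of them did not pass.

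Slc38a2 (SNAT2), the carrier that cells raise when amino acids run short, read 10.84, 11.49, 11.67, 11.45 and 11.44 in tumours and 11.32, 11.55, 11.77 and 11.73 in livers. The groups overlapped and tumour 1 was lowest. The log2 difference was -0.21 (95% interval -0.60 to 0.17, limma adjusted p = 0.352), -0.078 without tumour 1, and 0.17 with arrays centred on the median of housekeeping genes. On their mean it was -0.70 and past the threshold. Its other probe sets, 1429593_at and 1429594_at, gave 0.20 (SE 0.16) and -0.0048 (SE 0.12).

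Slc1a4, which encodes ASCT1, an exchanger of alanine, serine and cysteine, varied in 1 tumour. Tumour 3 read 8.67, while the other tumours read 6.61, 6.23, 6.19 and 6.64 and the livers 6.76, 7.30, 6.98 and 6.55. Tumour 3 was above every liver and tumours 2 and 4 below every liver. All 3 probe sets showed this, with tumour 3 at 8.56 and 7.60 in 1423549_at and 1456003_a_at against 5.74 to 6.31 and 5.86 to 6.17 in the other tumours. The group difference was -0.027 (95% interval -1.10 to 1.05, limma adjusted p = 0.967), 0.037 without tumour 1, -0.48 without tumour 3 and 0.36 or -0.51 with arrays centred on the median or the mean of housekeeping genes, and its interval leaves room for a 2-fold change either way.

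Across the 10 genes, tumour 3 held the highest of the 5 tumour values for 5 of them (Slc7a5, Slc3a2, Slc38a1, Slc38a2 and Slc1a4). Tumour 1 held the lowest for 5 (Slc7a2, Slc38a1, Slc38a2, Slc38a3 and, level with tumour 4, Slc1a5). The part of pancreatic RNA in the values of tumour 1 and of fibroblast RNA in those of tumour 3 was not tested.

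**Figure D4:**
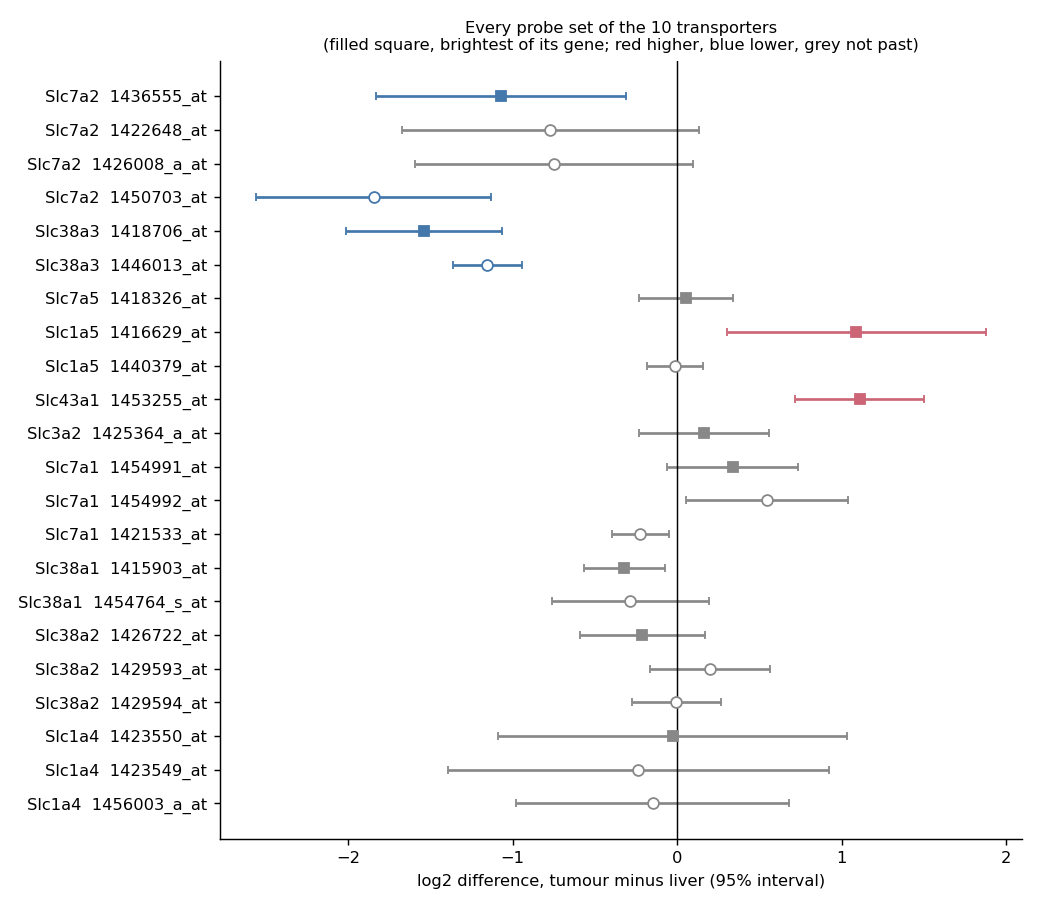
Log2 difference between 5 tumours and 4 livers for each of the 22 probe sets of the 10 transporters, with its 95% interval from limma. Filled squares are the brightest probe set of a gene and open circles the others; red passed higher, blue passed lower and grey did not pass an adjusted p of 0.05 over all probe sets. Of the 22, 2 passed higher and 4 lower.

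Adjusted over all 34945 probe sets instead of genes, 6 of the 22 probe sets passed (2 higher and 4 lower), against 30.6% of all probe sets. Without tumour 4, 10 of the 22 passed, against 29.4% of all probe sets in that fit. This was the largest count among the fits that left out 1 array, and the others gave 4 to 6. Slc38a1 did not pass in the fit of all probe sets on all 9 arrays (limma adjusted p = 0.051). The probe sets of Slc38a3 took the same direction, as did the 4 of Slc7a2, whereas those of Slc7a1, Slc1a5 and Slc38a2 did not all share a sign.

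Genes with the most similar pattern were found by the root mean square difference over the 9 arrays, after each gene was centred on its own mean. Nearest to Slc38a3 were Hoga1, a mitochondrial enzyme of hydroxyproline breakdown (0.129 log2 units), Smim13 (0.174) and 2310010J17Rik (0.197), with log2 differences of -1.46, -1.56 and -1.42. Nearest to Slc7a2 were Bbip1 (0.171), Pdcd4 (0.204) and 4930581F22Rik (0.231), and nearest to Slc1a5 were Slf1 (0.154), Fv1 (0.223) and the splicing factor gene Sf3b4 (0.265). Slc7a5, which is nearly flat, lay nearest to Btnl2 (0.0813), Tgfb3 (0.0828) and Ddx51 (0.0851).

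Of 36 other amino acid transporters of the plasma membrane, 2 rose, 6 fell and 28 did not pass, beside 16.1% higher and 17.4% lower of all genes. Their median log2 difference was -0.071 against -0.081 for all genes. Slc1a2, the glutamate carrier GLT-1 of hepatocytes around the central vein, fell most. The livers read 11.01, 10.28, 10.74 and 10.94, whereas the tumours read 5.32, 5.21, 5.17, 6.45 and 5.25, far below every liver. The log2 difference was -5.26 (SE 0.28, limma adjusted p = 1.7e-06). Its 4 other probe sets also fell, at -4.04, -1.96, -0.39 and -0.34, and the mean over all of them gave -2.40; the tumour values of the brightest one lie low on the scale, so its size is uncertain. Slc6a12, a carrier of betaine and GABA, fell (-1.86, SE 0.28), as did Slc16a10, the aromatic amino acid carrier TAT1 (-1.27, SE 0.25; 2 of its other probe sets did not pass, at -0.34 and 0.38), and Slc6a9, the glycine carrier GLYT1 (-0.84, SE 0.19), the last not past with arrays centred on the median of housekeeping genes (-0.45). Slc38a4, a system A carrier of liver, fell by 1.38 (SE 0.32); it was picked out after its values were seen.

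Slc7a7, the light chain y+LAT1 that exports cationic amino acids with 4F2hc, rose by 1.70 (SE 0.27, limma adjusted p = 0.00155). Its tumour values of 9.19, 8.38, 9.73, 9.40 and 9.48 all lay above its liver values of 7.77, 7.67, 7.69 and 7.04. Slc36a1, a proton-coupled carrier of lysosome and plasma membrane, rose by 0.64 (SE 0.19, adjusted p = 0.0301). It did not pass once tumour 1 (0.65), tumour 3 (0.58) or any of livers 1 to 3 (0.54, 0.68 and 0.65) was left out, or with arrays centred on the mean of housekeeping genes (0.15). The number that rose was 7 with arrays centred on the median of housekeeping genes, 1 on their mean and 1 on the 75th percentile, and the number that fell 3, 27 and 13.

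**Figure D5:**
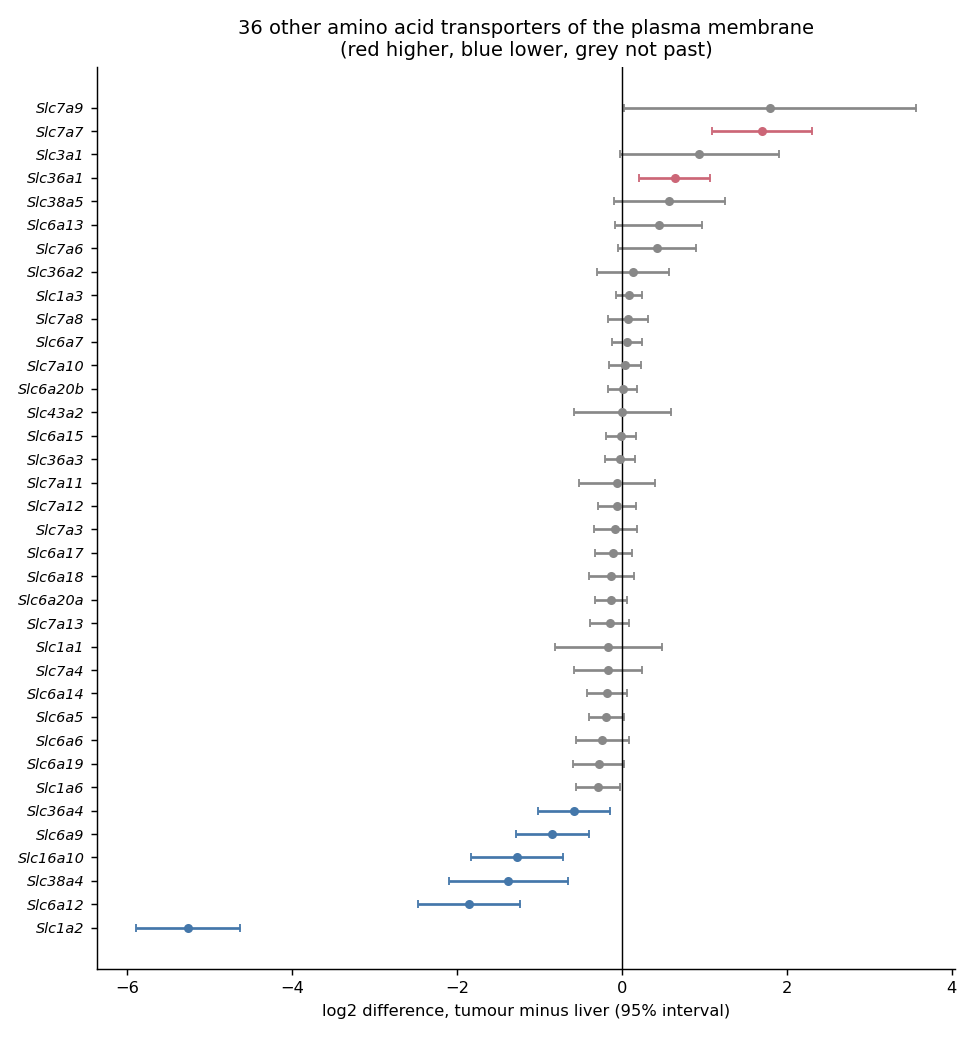
Log2 difference between 5 tumours and 4 livers for 36 further amino acid transporters of the plasma membrane, with 95% intervals from limma; red passed higher, blue passed lower, grey did not pass. Slc1a2 lies at -5.26 and Slc7a7 at 1.70, and 28 of 36 genes did not pass.

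The central-vein hepatocyte markers fell in 7 of 7, with a mean level of 7.31 to 8.87 in tumours and 10.996 to 11.35 in livers. Macrophage markers fell in 4 of 6 (7.21 to 9.22 against 9.30 to 10.42) and endothelial markers in 3 of 6 (7.06 to 8.45 against 8.59 to 9.24). Of the hepatocyte markers, 0 of 5 passed with limma, with mean levels of 13.71 to 14.41 in tumours and 14.42 to 14.48 in livers. Alb, Ttr and Apoa1 read close to the highest value of all arrays (15.55), where a change can be understated. Tat was lower in all tumours than in all livers (-1.72, SE 0.67, limma adjusted p = 0.0735), and Hnf4a overlapped (0.20, SE 0.17). Hepatocyte content is therefore not read as unchanged. Portal hepatocyte markers had 1 higher and 1 lower of 4, bile duct markers 1 and 1 of 5, and stellate and fibroblast markers 2 and 2 of 6. B cell markers had 2 lower of 4, and none passed of 5 T and NK cell, 5 neutrophil and 4 red cell markers. Beside these counts, 16.1% of all genes were higher and 17.4% lower. The part of these cell types in the fall of Slc38a3, Slc7a2 and Slc1a2 was not tested.

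ATF4 drives the genes of the amino acid response when amino acids or the secretory pathway are under strain. Of 28 such genes 15 rose and 1 fell, with a median of 0.67, beside 16.1% higher and 17.4% lower of all genes. With arrays centred on the mean of housekeeping genes 7 rose and 6 fell, beside 1280 and 11735 of all 18193 genes. Atf4 itself rose by 0.78 (SE 0.17, limma adjusted p = 0.00744), with tumour values of 11.70 to 12.37 above liver values of 11.03 to 11.58. The related factor gene Atf3 rose by 1.80 (SE 0.23), the mitochondrial folate enzyme gene Mthfd2 by 1.33 (SE 0.21) and the tryptophan tRNA ligase gene Wars by 0.74 (SE 0.13). Vldlr, a lipoprotein receptor, fell by 3.12 (SE 0.61), although liver 4 at 5.62 was close to the tumours' 4.41 to 5.49. The other 12 genes did not pass, at log2 differences of -1.08 to 0.81. Asns (-0.45), picked out after its values were seen, was among them. Without tumour 1, 14 of the 28 rose, beside 2634 of all 18193 genes. With arrays centred on the mean of housekeeping genes Atf4 (0.30) and Wars (0.25) did not pass, and Atf3 (1.31) and Mthfd2 (0.84) did.

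Of 32 measured genes by which the kinase complex mTORC1 senses amino acids, 7 rose and 7 fell, with a median of 0.0065. Of all genes 16.1% rose and 17.4% fell, and against this background nothing is read from these counts. Depdc5, of the GATOR1 complex, rose by 0.80 (SE 0.11), Sec13 by 0.56 (SE 0.12), Mlst8 by 0.55 (SE 0.13) and Tsc2 by 0.59 (SE 0.14), none of them past with arrays centred on the mean of housekeeping genes (0.32, 0.079, 0.067 and 0.10). The 5 other probe sets of Depdc5 did not pass, at -0.055 to 0.25. Mtor, the kinase (-0.72, SE 0.098), and Tsc1 (-0.42, SE 0.092) fell, neither past the threshold with arrays centred on the median of housekeeping genes (-0.33 and -0.035). Dimmer probe sets of Mtor (-0.22) and Tsc1 (0.33) did not pass. The number that rose was 4 without liver 1 or liver 3, and 0 with arrays centred on the mean of housekeeping genes. In the same fits 2348, 2435 and 1280 of all 18193 genes rose. The number of mTORC1 genes that fell was 0 on the median of housekeeping genes, 18 on their mean and 11 on the 75th percentile. In the same fits 610, 11735 and 7982 of all genes fell.

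Among 12 measured enzymes of glutamine and arginine metabolism, 3 fell and none rose (1 rose without tumour 4 or liver 4, and 5 fell without tumour 3), with a median of -0.42. They were Glul, which makes glutamine (-3.08, SE 0.30), Oat, the ornithine aminotransferase (-5.75, SE 0.59), and Asl, argininosuccinate lyase (-1.55, SE 0.27). Glul and Oat are also 2 of the 7 central-vein hepatocyte markers counted above. Of all genes 17.4% fell and 16.1% rose. Without tumour 4 or liver 4, 2926 and 2718 of all 18193 genes rose, and without tumour 3, 2578 fell. With arrays centred on the mean of housekeeping genes 11 of the 12 enzymes fell, beside 11735 of all 18193 genes. Arg1, the arginase of the urea cycle, averaged 14.13 ± 0.58 for tumours (SD, n = 5) and 14.64 ± 0.044 for livers (SD, n = 4) without passing and was picked out after its values were seen.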

How the data were processed

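The authors deposited log2 values for each probe set, and these were used unchanged. The submitters' processing notes name RMA. Trizol extraction and 2 rounds of amplification preceded hybridisation, per the labels. RMA is built to even out the arrays' distributions, so a change shared by most genes cannot be read from these values. The deposited distributions still differed between the groups. Their 75th percentile was 8.30 to 8.38 on the tumour arrays and 8.12 to 8.19 on the liver arrays. Platform annotation gave 1 symbol to 34945 of 45101 probe sets, several to 932 and none to 9160; 34741 were found in RefSeq. Each gene took its probe set of highest mean over all 9 arrays. Groups were compared with limma 3.58.1 (R 4.3.3; lmFit, eBayes) over all 18193 genes, or over all 34945 probe sets, with Benjamini-Hochberg adjustment and a threshold of 0.05. The fit was also run on simulated data with changes planted in 200 of 18193 genes. It recovered 23.9% of planted log2 changes of 0.5, 74.6% of 1 and 92.4% of 2. In the deposited data 33.5% of all genes passed, and recovery at such a share was not tested. The number of arrays limits the precision.

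The transporters and gene lists were chosen with earlier results of these data known. Named genes were all 10 transporters; of each other list up to 4 called genes of smallest adjusted p in the commoner direction and 2 in the other; and, for 4 transporters, the 3 nearest in pattern. Individual marker genes and those said to be picked out after their values were seen fall outside this rule. Alternatives changed the probe set, dim-gene filter, array centring, limma options, array weights, replicate block and Xist covariate, or left out arrays.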

Additional observations from a re-analysis of the deposited data

Results flagged for a closer look

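Of 122 groups examined for a single array far from the rest, 17 had one. Chance gives about 1 in 20 for independent groups that were not chosen by their values. The groups here included several probe sets of the same gene and genes picked for their pattern. They also included pancreas and collagen genes already seen to stand apart, so 17 is not read against that rate. No cause was tested.

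For Slc1a4, tumour 3 stood apart on each of 3 probe sets, at 8.67, 8.56 and 7.60, against 6.19 to 6.64, 5.74 to 6.31 and 5.86 to 6.17 in the other tumours. Slc38a2 was low in tumour 1, at 10.84 against 11.44 to 11.67, and its dim probe set 1429594_at was high in liver 1, at 6.02 against 5.48 to 5.54. Slc38a3 was lowest in liver 3, at 13.11 against 13.42 to 13.48, which is still above every tumour.

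Among other carriers, Slc1a2 read 6.45 in tumour 4 against 5.17 to 5.32 in the other tumours, and Slc7a7 read 7.04 in liver 4 against 7.67 to 7.77. Vldlr read 5.49 in tumour 3 against 4.41 to 4.70, and 5.62 in liver 4 against 8.44 to 8.71. Tgfb3 read 6.03 in liver 4 against 6.13 to 6.15, and Sf3b4 read 12.62 in tumour 2 against 10.64 to 10.74. Slc1a5 was also highest in tumour 2. Sf3b4 was named for its likeness to Slc1a5 over these same arrays, so the shared peak is no separate result.

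The pancreas genes Cpa1, Prss2 and Ctrb1 read 14.58, 14.55 and 14.53 in tumour 1, and the collagen genes Col1a1 and Col3a1 read 10.33 and 12.82 in tumour 3.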

How the results depend on the processing

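Slc38a3 stayed lower and Slc43a1 higher, past the threshold, in all 20 alternatives run on each. With arrays centred on the median of housekeeping genes, 1 transporter of the 10 fell. In that fit, of the 36 other carriers 7 rose and 3 fell, of the mTORC1 genes 0 fell, and of the glutamine and arginine enzymes 1 rose. Of all 18193 genes 4202 rose and 610 fell. Slc38a1 turned to 0.066, Slc38a2 to 0.17 and Slc1a4 to 0.36. With arrays centred on their 75th percentile, 1 other carrier rose and 13 fell. In that fit 4 ATF4 genes, 11 mTORC1 genes and 6 enzymes fell. Of all 18193 genes 2328 rose and 7982 fell. Slc7a5 (-0.12), Slc3a2 (-0.017), Btnl2 (-0.18), Tgfb3 (-0.060) and Ddx51 (-0.12) turned sign. Array weights gave 4 other carriers and 1 enzyme higher, beside 3369 of all 18193 genes, and Btnl2 at -0.00081. With Xist as a covariate 1 transporter and 1 enzyme rose, beside 3027 of 18192 genes. In that fit Slc1a4 was 0.039 and Btnl2 -0.012. Without the 3 arrays of low Xist, an alternative chosen after seeing the data, 1 transporter, 2 ATF4 genes and 4 mTORC1 genes fell and 1 enzyme rose. Of all 18193 genes 2806 rose and 2274 fell. In that fit Slc1a4 was 0.15 and Btnl2 -0.012. With arrays centred on the mean of housekeeping genes, also chosen after seeing the data, 1 transporter, 1 other carrier, 7 ATF4 genes, 0 mTORC1 genes and 1280 genes rose. In that fit 5 transporters, 27 other carriers, 6 ATF4 genes, 18 mTORC1 genes, 11 enzymes and 11735 genes fell. Of the 22 probe sets of the transporters 14 passed, beside 71% of all 34945 probe sets. Slc7a1 (-0.15), Slc7a5 (-0.43), Slc3a2 (-0.32), Btnl2 (-0.48), Tgfb3 (-0.37) and Ddx51 (-0.43) turned sign. Dimmer probe sets gave the other sign, none past the threshold, for Slc1a5 (-0.011, within its spread), Slc38a2 (0.20) and Slc7a1 (-0.23). Apart from these constructions, the cause was not tested.

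Leaving out 1 array at a time gave 1 to 3 transporters higher and 1 to 2 lower, 4 to 10 of their probe sets, 1 to 3 other carriers higher and 5 to 7 lower, 13 to 16 ATF4 genes higher, 4 to 10 mTORC1 genes higher and 5 to 7 lower, 0 to 1 enzymes higher and 3 to 5 lower, and 2284 to 3110 genes lower. In the same fits 2348 to 3251 of all 18193 genes were higher, and 23.3% to 31.5% of all probe sets passed. Values ran from -0.019 to 0.12 for Slc7a5 from -0.48 to 0.14 for Slc1a4, from -0.064 to 0.086 for Btnl2 and from -0.011 to 0.10 for Ddx51, and the difference of the RNA length control Gapdh from 0.052 to 0.090.

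Replicate numbers were not shown to pair the samples: correlations of same-numbered deviations ran from -0.129 to 0.18, and 1 of 4 tumours was most like the liver of its own number. With the replicate block 1 transporter, 1 other carrier, 9 ATF4 genes and 3 mTORC1 genes rose, beside 2021 of all 18193 genes. In that fit 1 transporter, 4 mTORC1 genes and 1531 genes fell, and Slc1a4 was 0.031.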
